A study of Mus musculus with 20 samples.

Results

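Toll-like receptors are membrane proteins of innate immune cells that recognise microbial molecules, some at the cell surface and some inside endosomes. Most of them hand the signal to the adaptor Myd88, which assembles a complex with Irak kinases and leads to activation of NF-kB and interferon regulatory factors. In blood they are carried mainly by neutrophils, monocytes, dendritic cells and B cells. The genes described here are 6 receptors (Tlr1, Tlr2, Tlr4, Tlr6, Tlr7 and Tlr9), the co-receptor Cd14, the adaptor Myd88 and the kinase family members Irak3 and Irak4. Every array probe carrying 1 of these 10 gene names was taken, which gave 14 of 41174 probes. Of these, 11 probes of all 10 genes passed the filter on dim signals, among 20903 probes that passed in all.

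Whole blood came from 4 female C57Bl/6 mice, numbered 305, 310, 315 and 320. Each was bled before inoculation (day 0) and on days 10, 15, 20 and 25 after a subcutaneous injection of Hepa1-6 cells, a cultured mouse hepatoma line. Each of the 20 two-colour arrays carried the RNA of 1 mouse on 1 day in the Cy5 dye and a common reference, blood RNA of untreated C57Bl/6 mice, in Cy3. Levels are log2(Cy5/Cy3) after loess normalization, which removes each array's trend of the ratio with brightness. A level of 0 is thus the usual ratio of probes of like brightness on that array, not equal signal in both dyes. A change is a later day minus day 0. Before inoculation, several day 0 means lay away from 0: 0.69 for Tlr6, 0.58 for Tlr2, 0.44 for Myd88 and -0.66 for Tlr9. These were -0.15, 0.04, 0.06 and 0.12 on day 15. Tlr1 lay at 0.13 on day 0 and -0.09 on day 15, and Tlr9 at -0.48 on day 25. A change is thus a distance from day 0 and not from a level of 0. The cause of the day 0 values was not tested. No mice without tumour cells were followed to the later days in the data used here, so time, repeated bleeding and tumour cannot be told apart. In whole blood, fewer cells of a type and less RNA per cell cannot be told apart either.

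The 4 arrays of a day shared a slide, so day and slide cannot be told apart. The day 0 slide was brighter in both dyes: the median net Cy5 intensity was 48.1 to 66.5 on the later days and 84.2 to 112 on day 0, and that of the common reference in Cy3 was 30.1 to 41.9 later and 103 to 141 on day 0. The part of this brightness in the changes below was not tested. The day 0 array of mouse 320 stood apart, with a mean correlation across probes of 0.484 with the other day 0 arrays and 0.525 with the day 10 arrays. The day 0 array of mouse 305 likewise correlated at 0.497 with the other day 0 arrays and at 0.556 with the day 25 arrays. Without it 7, 8, 7 and 5 of the probes described below passed on days 10, 15, 20 and 25, without that of mouse 320 7, 8, 5 and 4, and with all arrays 7, 9, 6 and 5. The day 20 array of mouse 305 correlated at 0.467 with the other arrays of its day, which is lower than the 0.633 to 0.646 of the other 3. Leaving it out changed no call of a member on any single day.

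Promoter sequence is shown for Tlr9 and Myd88, because Tlr9 passed the test as higher on days 10 and 15 while Myd88, its adaptor, passed as lower; the direction of Tlr9 held with loess normalization and not with median centring. Both lie on chromosome 9. Each line gives the 250 bases before the transcription start from RefSeq (build GRCm38.p6), 5′ to 3′ on the gene's strand, with matched motifs in capitals.
Tlr9, chr9:106222348-106222597, plus strand: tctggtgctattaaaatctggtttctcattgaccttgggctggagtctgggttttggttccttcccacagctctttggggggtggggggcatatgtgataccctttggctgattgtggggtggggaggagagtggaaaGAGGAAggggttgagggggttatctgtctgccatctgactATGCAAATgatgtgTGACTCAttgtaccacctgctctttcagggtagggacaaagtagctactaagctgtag
Myd88, chr9:119340019-119340268, minus strand: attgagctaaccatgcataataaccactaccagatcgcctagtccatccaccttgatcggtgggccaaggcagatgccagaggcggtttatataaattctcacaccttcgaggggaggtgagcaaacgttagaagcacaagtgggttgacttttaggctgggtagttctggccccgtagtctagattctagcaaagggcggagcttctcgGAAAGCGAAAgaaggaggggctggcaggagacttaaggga
Both strands were searched for 5 motifs, chosen after the sequences were seen. The Tlr9 window held the octamer ATGCAAAT, bound by Oct factors, which 1.6% of 32851 mouse promoter windows of this length hold. It also held the AP-1 motif TGANTCA (6.75% of windows) and the PU.1 core GAGGAA (23.3%). The Myd88 window held the interferon response motif, GAAA repeated after 2 bases of any kind (2.98%). Neither window held the NF-kB motif, GGG and CC separated by 5 bases of any kind, found in 45.8% of windows. A match is a match of letters and was not tested as a binding site. The table had rows for 7 of the 10 genes.

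On day 10, 7 of the 11 probes passed the threshold (limma, Benjamini-Hochberg adjusted p under 0.05 over all probes), with 6 lower and 1 higher than on day 0. Over all probes 36.5% passed, 21.9% lower and 14.5% higher. On day 15, 9 of 11 passed, 8 lower and 1 higher, against 38.7% of all probes (21.9% lower, 16.8% higher). On day 20, 6 passed, all lower, against 19.7% (13% lower, 6.64% higher). On day 25, 5 passed, all lower, against 15.2% (10.1% lower, 5.07% higher). The median change of the 11 probes was -0.34, -0.37, -0.29 and -0.20 on days 10, 15, 20 and 25, while that of all probes was -0.07, -0.06, -0.07 and -0.05. Over the 4 later days together, 8 of 11 probes passed the F test, against 55.3% of all probes. All 4 comparisons share the day 0 arrays. These counts depend on how the array background was estimated, a setting that was changed after results had been seen: with background estimated on all spots, as first run, 5, 3, 1 and 0 probes passed on days 10, 15, 20 and 25, and 1 between days 25 and 10. The calls that this ends are given with each gene.

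**Figure D1:**
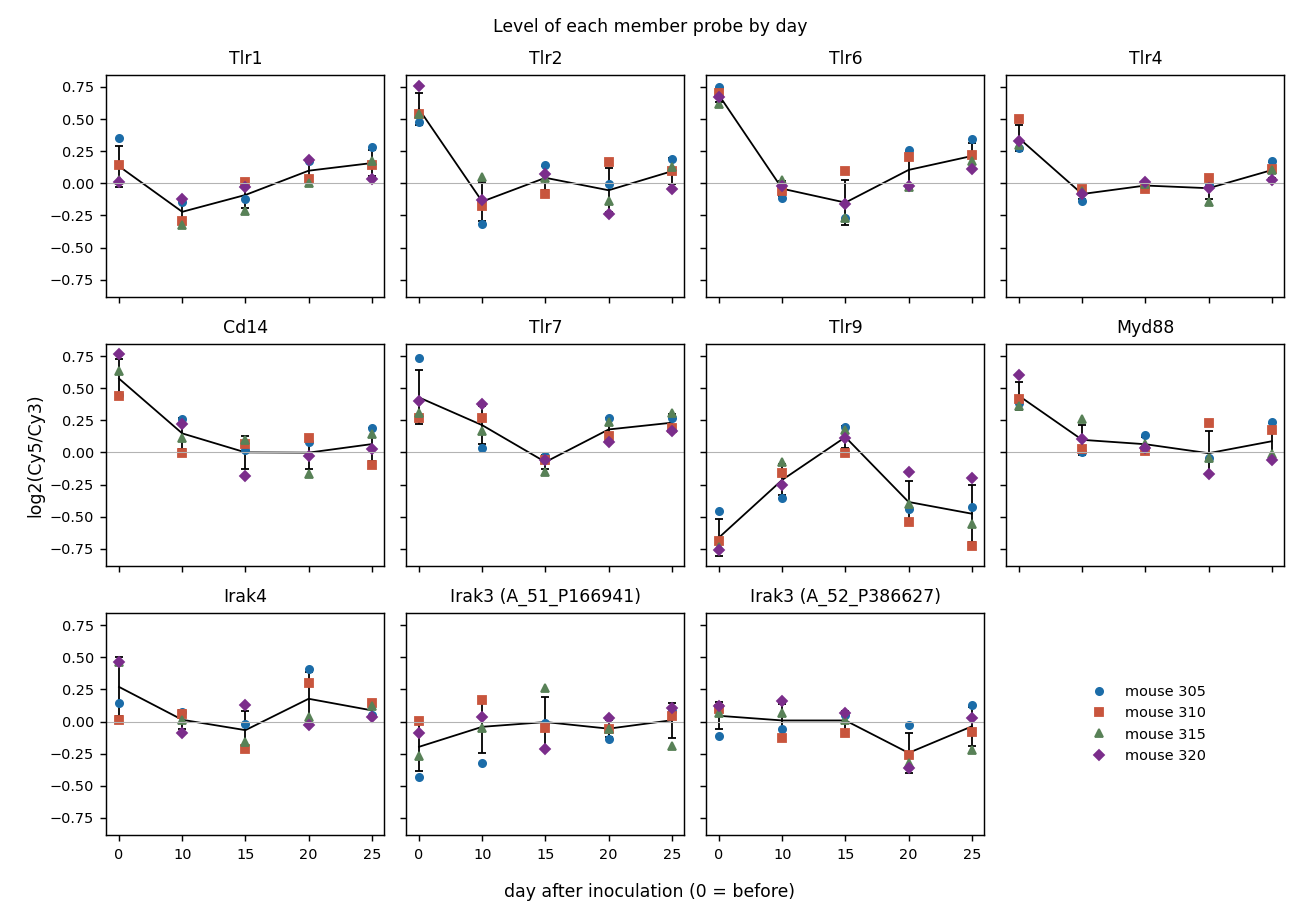
Log2(Cy5/Cy3) of the 11 probes on each array, by day (evenly spaced on the axis), with 1 symbol per mouse and the mean ± SD of 4 mice in black. Tlr2, Tlr6, Tlr4, Cd14 and Myd88 lie below their day 0 values on all later days, whereas Tlr9 lies lowest on day 0 and highest on day 15.

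Tlr2 recognises bacterial lipoproteins, as a pair with Tlr1 or Tlr6. The Tlr6 levels on day 0 were 0.75, 0.71, 0.62 and 0.68 in mice 305, 310, 315 and 320. They were -0.11, -0.06, 0.02 and -0.02 on day 10, -0.27, 0.10, -0.27 and -0.16 on day 15, 0.26, 0.21, -0.03 and -0.02 on day 20, and 0.34, 0.22, 0.18 and 0.11 on day 25. No later value reached any day 0 value. The change was -0.73 ± 0.09 (SE, n = 4 mice per day) on day 10, -0.84 on day 15, -0.58 on day 20 and -0.47 on day 25, with limma adjusted p of 2.55e-05, 5.03e-06, 0.000318 and 0.00257. The day 15 change corresponds to 0.56 times the day 0 ratio. With background estimated on all spots the changes were -0.23, -0.22, -0.18 and -0.06, and only that of day 10 passed (adjusted p = 0.0281). With the log ratio of the scanner software the changes of days 20 and 25 were -0.79 (0.0939) and -0.55 (0.327), and with scaling between arrays that of day 25 was -0.24 (0.0802).

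Tlr2 levels on day 0 were 0.48, 0.54, 0.54 and 0.76. They were -0.32, -0.18, 0.05 and -0.13 on day 10, 0.14, -0.08, 0.04 and 0.07 on day 15, 0.00, 0.16, -0.14 and -0.24 on day 20, and 0.19, 0.10, 0.13 and -0.04 on day 25. The groups again did not overlap on any later day, and every mouse was lower on each later day than on its own day 0. The changes were -0.72, -0.53, -0.63 and -0.48 (SE 0.10), with limma adjusted p of 4.18e-05, 0.000248, 0.000305 and 0.00358. With background estimated on all spots they were -0.38, -0.29, -0.33 and -0.21, and that of day 25 no longer passed (0.173). The Tlr2 probe is printed 10 times on each array, and its spots had a median SD of 0.10 on the log2 scale.

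Tlr1 had another course. Its levels were -0.15, -0.29, -0.32 and -0.13 on day 10, against 0.35, 0.15, 0.03 and 0.01 on day 0, with no overlap. The change was -0.35 ± 0.09 on day 10 (limma adjusted p = 0.0039) and -0.22 on day 15 (0.045). The day 15 call was lost when any 1 of 8 arrays was left out, and with background estimated on all spots (-0.13, 0.445), the log ratio of the scanner software (-0.26, 0.0755), scaling (-0.19, 0.0864) and no filter on dim probes (-0.22, 0.0638). On days 20 and 25 the changes were -0.03 and 0.03 (adjusted p = 0.804 and 0.869), with 95% intervals of -0.21 to 0.14 and -0.15 to 0.20. Tlr1 was higher on day 25 than on day 10 by 0.38 ± 0.09 (adjusted p = 0.00175), and no day 25 value overlapped the day 10 values.

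Tlr4 recognises bacterial lipopolysaccharide, which Cd14 delivers to it. Tlr4 levels lay between -0.15 and 0.17 on all later days, against 0.28, 0.50, 0.30 and 0.33 on day 0, so that every later value was lower. The changes were -0.43, -0.37, -0.39 and -0.25 (SE 0.07) on days 10, 15, 20 and 25, with limma adjusted p of 0.000125, 0.000277, 0.000796 and 0.0176. With background estimated on all spots none passed, with changes of -0.10, -0.07, -0.10 and 0.01. The day 25 change also failed with the log ratio of the scanner software (-0.63, 0.111), scaling (-0.14, 0.172), Cy5 alone (-0.20, 0.0837) and no background correction (-0.10, 0.0645). The probe was dim: in Cy5 it was well above background on 4 day 0 arrays, on 3, 0 and 1 arrays of days 10, 15 and 20, and on all 4 of day 25. In Cy3, the common reference, it was so on 0, 3, 2, 4 and 4 arrays of days 0, 10, 15, 20 and 25, so the day 0 ratios behind all 4 changes have a denominator not well above background. A second probe named Tlr4 was not well above background on any array. The positions in the files put it 86.8 kb from the first, whereas the RefSeq gene is 19 kb long.

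Cd14 levels on day 0 were 0.45, 0.44, 0.64 and 0.77. They were 0.26, 0.00, 0.11 and 0.23 on day 10, and between -0.18 and 0.19 on days 15, 20 and 25. The groups did not overlap on any later day. The changes were -0.43, -0.57, -0.58 and -0.51 (SE 0.10), with limma adjusted p of 0.00222, 0.000133, 0.000614 and 0.00265. In Cy5, Cd14 was well above background on 4 day 0 arrays and on 2, 1, 1 and 3 arrays of days 10, 15, 20 and 25. In Cy3 it was so on 0, 3, 3, 0 and 0 arrays of days 0, 10, 15, 20 and 25, so its day 0 ratios too have a denominator not well above background. With background estimated on all spots none of the 4 changes passed, at -0.02, -0.10, -0.11 and -0.01, and with the Cy5 channel alone none did either. With the log ratio of the scanner software that of day 25 did not pass (-1.39, 0.0805).

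Tlr7 and Tlr9 sense nucleic acids in endosomes, Tlr7 single-stranded RNA and Tlr9 unmethylated CpG DNA. Tlr9 was the one gene of the 10 that passed the test as higher after inoculation. Its levels were -0.45, -0.69, -0.74 and -0.76 on day 0, -0.36, -0.16, -0.08 and -0.26 on day 10, and 0.20, 0.00, 0.17 and 0.11 on day 15. They were -0.44, -0.55, -0.40 and -0.16 on day 20 and -0.42, -0.73, -0.56 and -0.20 on day 25. The day 10 and day 15 values did not overlap those of day 0, whereas those of days 20 and 25 did. The change was 0.45 ± 0.11 on day 10 (limma adjusted p = 0.00348) and 0.78 on day 15 (2.54e-05), a ratio of 1.72. On days 20 and 25 it was 0.28 (adjusted p = 0.0713) and 0.19 (0.24). The calls of days 10 and 15 held with background estimated on all spots, at 0.34 and 0.57.

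The direction of Tlr9 depended on the normalization. Loess removes a trend of the ratio with brightness, and median centring does not. Of the settings run, only median centring turned the day 10 and day 15 changes of Tlr9 negative. Cy5 alone, which has no loess step, did not. With median centring in place of loess its changes were -0.68, -0.55, -0.85 and -0.22, while all probes shifted by -0.51, -0.53, -0.54 and -0.21. Relative to that shift Tlr9 moved by -0.17, -0.02, -0.31 and 0.00. The Tlr9 probe had a net Cy5 intensity of 1342 to 5081 over all arrays. It was 3093 to 5081 on day 0, 1591 to 2518 on day 10 and 1598 to 1845 on day 15. In Cy3 it was 1749 to 2249, 1794 to 1986 and 1250 to 1900 on those days. Before normalization, net Cy5 was thus lower on days 10 and 15 than on day 0, and the rise appeared only after normalization. With the ratio of the scanner software the day 10 and day 15 changes were 0.48 and 0.72. The day 20 change passed as higher with this ratio and with Cy5 alone. With scaling between arrays the day 10 change was 0.27 and no longer passed (limma adjusted p = 0.0743), and with Cy5 alone it was 0.13 (0.473).

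**Figure D2:**
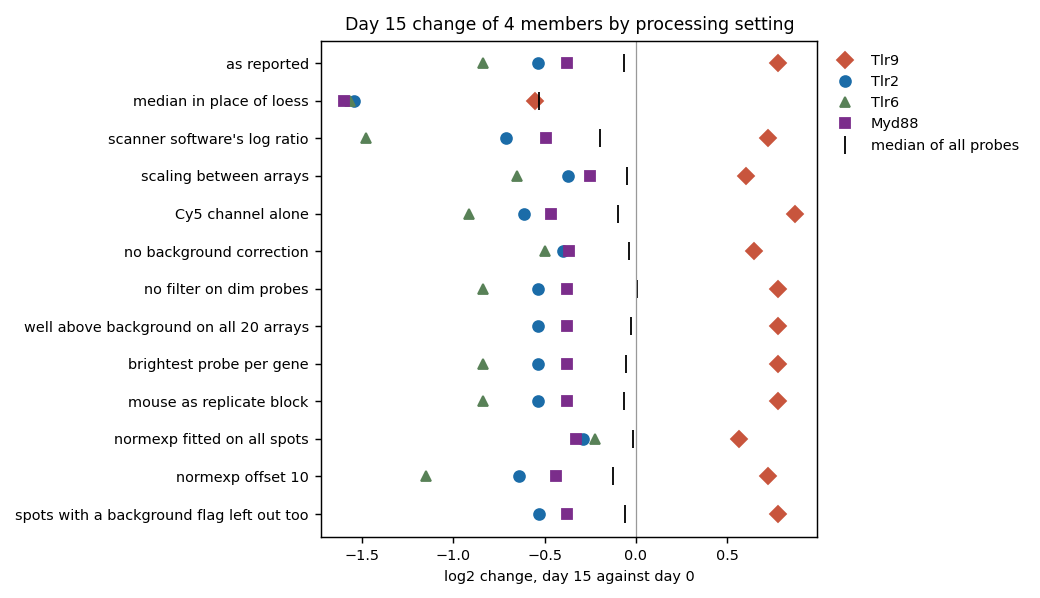
Log2 change on day 15 against day 0 (x axis) of Tlr9, Tlr2, Tlr6 and Myd88 under each processing setting (rows), with the median of all probes as a bar. Tlr9 lies above 0 in every setting shown except median centring, where it lies at the median of all probes. The other settings, apart from the scanner software's log ratio and Cy5 alone, keep the loess step. Tlr6 is absent in the 2 settings that dropped its probe.

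Tlr7 levels were -0.03, -0.06, -0.15 and -0.06 on day 15, against 0.73, 0.27, 0.31 and 0.40 on day 0, with no overlap. The day 15 change was -0.50 ± 0.09 (limma adjusted p = 0.000334), and -0.22 (0.184) with background estimated on all spots. On days 10, 20 and 25 the changes were -0.22, -0.25 and -0.20 (adjusted p = 0.0721, 0.0615 and 0.148), and the values were lower than on day 0 in all 4 mice. The day 15 difference between the changes of Tlr9 and Tlr7 was 1.02 to 1.41 in the 4 mice, which is a description, as the pair was chosen after the values were seen.

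Myd88 is the adaptor shared by all 6 receptors here. Its levels were 0.39, 0.41, 0.36 and 0.60 on day 0, 0.00, 0.02, 0.26 and 0.11 on day 10, and 0.14, 0.01, 0.07 and 0.04 on day 15. They were -0.04, 0.23, -0.05 and -0.17 on day 20 and 0.24, 0.18, -0.01 and -0.06 on day 25. The groups did not overlap on any later day. The changes were -0.34, -0.38, -0.45 and -0.35 (SE 0.09), with limma adjusted p of 0.00727, 0.00321, 0.00292 and 0.0151. Without the day 0 array of mouse 320 the day 25 change was -0.30 and did not pass (adjusted p = 0.0576). With background estimated on all spots those of days 20 and 25 did not pass, at -0.32 (0.0513) and -0.27 (0.133). With scaling those of days 10 and 25 did not pass, at -0.22 (0.0868) and -0.22 (0.131), and with Cy5 alone that of day 25 did not, at -0.26 (0.139).

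Irak4 is the kinase that Myd88 recruits first. Its kept probe changed by -0.34 ± 0.11 on day 15 (limma adjusted p = 0.02), with levels of -0.02, -0.21, -0.16 and 0.13 on day 15 and 0.14, 0.01, 0.47 and 0.46 on day 0, which overlap. The call was lost when any 1 of 4 arrays was left out: without the day 0 array of mouse 320 the change was -0.27 (0.0622), and with background estimated on all spots -0.05 (0.918). It was also lost with scaling (-0.26, 0.0715) and with Cy5 alone (-0.24, 0.0712). No day 15 array was well above background for this probe in Cy5, and no day 0 array in Cy3. On days 10, 20 and 25 it did not pass, with changes of -0.26, -0.09 and -0.18. The other Irak4 probe, 13.3 kb away, was well above background on 3 of 20 arrays and was not tested.

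Irak3, also called IRAK-M, restrains the pathway. Its 2 tested probes lie 0.6 kb apart and differed: A_51_P166941 changed by 0.16, 0.19, 0.14 and 0.21 on days 10, 15, 20 and 25, and A_52_P386627 by -0.04, -0.04, -0.29 and -0.08. Only the day 20 value of A_52_P386627 passed (limma adjusted p = 0.0322), and 3 of 4 mice were lower. That call was lost when any 1 of 6 arrays was left out, and without the day 0 array of mouse 320 the change was -0.26 (0.0594), and with background estimated on all spots -0.23 (0.0761). A_51_P166941 was well above background on 10 of 20 arrays in Cy5, none of them of day 20, and on no day 0 array in Cy3. The third Irak3 probe was so on 1 array and was not tested.

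**Figure D3:**
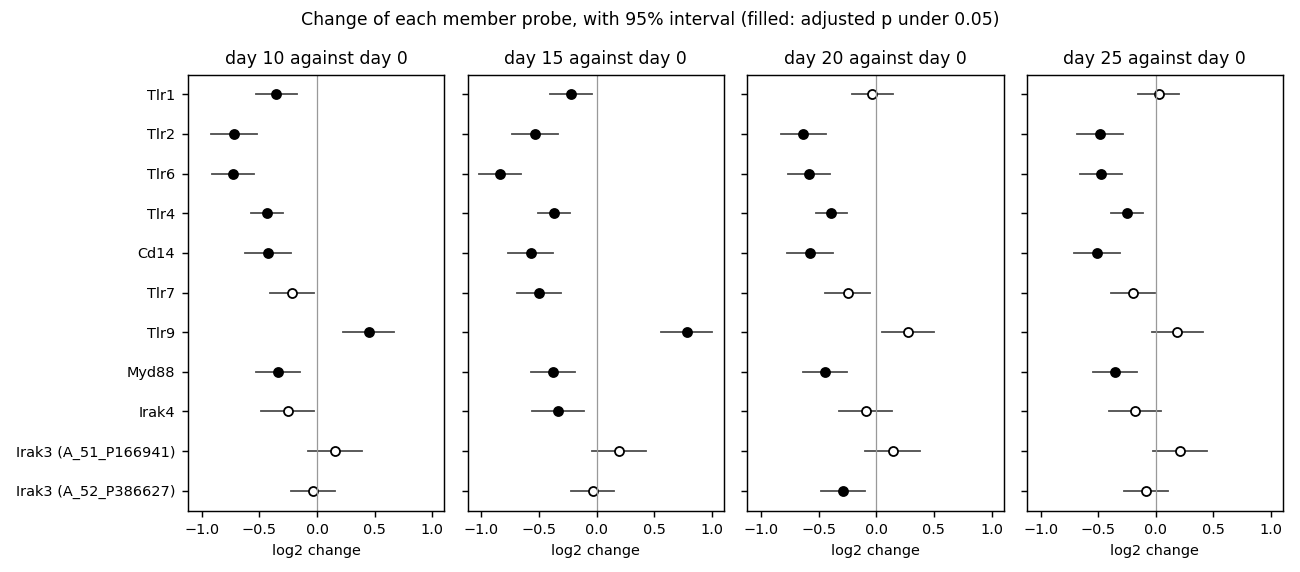
Log2 change of each probe against day 0 on days 10, 15, 20 and 25, with the 95% interval of the limma fit; filled points passed at an adjusted p under 0.05. Tlr2, Tlr6, Tlr4, Cd14 and Myd88 are filled and below 0 in all 4 panels, and Tlr9 is filled and above 0 on days 10 and 15.

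Between the later days, 3 of 11 probes were higher on day 25 than on day 10 (Tlr1, Tlr6 and Tlr4) and none was lower, against 35.8% of all probes (18.2% higher, 17.5% lower). Tlr6 differed by 0.25 ± 0.09 (limma adjusted p = 0.0286) and Tlr4 by 0.19 ± 0.07 (0.0328). Leaving out any 1 of 4 arrays ended the Tlr6 call, and any 1 of 5 the Tlr4 call. With background estimated on all spots the Tlr1 difference was the one that passed. With no filter on dim probes neither Tlr6 nor Tlr4 passed, nor did Tlr6 with the log ratio of the scanner software or Tlr4 with background-marked spots left out. Tlr2 was higher by 0.24 (0.0577) and Tlr9 lower, by -0.26 (0.0596), and neither passed.

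Among the other named genes, the 4 whose levels over the 20 arrays lay closest to Tlr2 were Tpd52, Fosl2, Cep19 and Gcnt2, at a root mean square difference of 0.08 to 0.11 after centring (median over all probes 0.30). For Tlr6 they were Cpne3, Tmem268, Fbxl5 and Timm10b (0.13 to 0.14, median 0.33), and for Tlr9 Cdca2, Zbtb7c, Clcn1 and Pip5k1c (0.10 to 0.12, median 0.36). Of the 45 pairs of the 10 genes, Myd88 and Tlr4 lay closest (0.12), and Tlr9 and Tlr6 farthest apart (0.57).

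Genes elsewhere in the pathway did not share one direction. Each gene is counted here by its brightest kept probe. Of 40 measured pathway genes, 9 were higher and 6 lower on day 10, 8 higher and 9 lower on day 15, 4 higher and 3 lower on day 20, and 5 higher and 5 lower on day 25. Their median change was -0.01, -0.03, 0.01 and -0.04 on those days. Over the later days 23 of 40 passed the F test, close to the 55.3% of all probes. Of all probes 14.5%, 16.8%, 6.64% and 5.07% were higher and 21.9%, 21.9%, 13% and 10.1% lower on those days. The brightest probe of Unc93b1, from the co-receptor, chaperone and trafficking genes, changed by -0.21, -0.07 and -0.01 on days 10, 15 and 20. It passed on none of them. Another Unc93b1 probe, outside these counts, changed by 1.22, 1.37 and 0.83. Irf7, a transcription factor downstream of Tlr7 and Tlr9, was higher by 1.37 on day 10 (limma adjusted p = 8e-05), 1.07 on day 15 and 0.63 on day 20, and changed by -0.54 on day 25 (0.0664). Tirap, which bridges Tlr2 and Tlr4 to Myd88, was lower by -0.40, -0.37 and -0.28 on days 10, 15 and 20 and changed by -0.22 on day 25 (0.08). Another Tirap probe changed by -0.27, -0.14 and -0.26 on days 10, 15 and 20.

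The kinase Irak1 was higher by 0.32, 0.44 and 0.42 on days 10, 15 and 20, and its other 2 probes had the same sign. The TAK1-binding proteins Tab2 and Tab3 were higher on days 10 (0.41 and 0.56) and 15 (0.54 and 0.70), and Tab3 was lower on day 25 (-0.69). Cd36, a Tlr2 co-receptor also found on platelets, was higher by 0.64 and 0.84 on days 10 and 15 and lower by -0.97 on day 25.

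Cd180, a receptor relative found on B cells, was higher on days 15, 20 and 25 (0.59, 0.52 and 0.62). Ly86, its partner, was lower on day 10 (-0.34) and higher on day 25 (0.40). Among negative regulators, Nfkbia, the inhibitor of NF-kB, was lower on days 10, 15 and 20 (-0.43, -0.72 and -0.35), and the deubiquitinase Cyld on days 10 and 15 (-0.30 and -0.40). Other Cyld probes changed by -0.02 and 0.07, and by -0.15 and -0.01. Otud5 was higher on days 10 and 15 (0.45 and 0.90) and lower on day 25 (-0.55). Rnf216 was higher on days 10, 15 and 20 (0.71, 0.99 and 0.49), while its second probe changed by -0.26, -0.15 and -0.06.

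Marker lists of blood cell types are given beside the all-probe shares lower (21.9%, 21.9%, 13% and 10.1% on days 10, 15, 20 and 25) and higher (14.5%, 16.8%, 6.64% and 5.07%). Each marker gene is also counted by its brightest kept probe. Of 13 mature neutrophil genes, 12, 12, 12 and 11 were lower on days 10, 15, 20 and 25 and none was higher. S100a9, a calcium-binding protein abundant in neutrophils, changed by -2.36, -2.20, -2.64 and -1.52. The mean of the list was 0.66 to 1.26 on day 0, -0.38 to 0.20 on day 10, -0.17 to 0.20 on day 15, -0.47 to 0.15 on day 20 and 0.05 to 0.45 on day 25. Of 10 monocyte genes 1, 3, 4 and 1 were lower, and Csf1r did not pass on any day. Of 10 B cell genes 1, 1, 1 and 4 were higher, with 1 lower on day 15, and Cd79a did not pass on any day. Of 11 erythroid genes 5, 4 and 1 were higher on days 10, 15 and 20 and 5 were lower on day 25. Of 8 dendritic cell genes, 1 was higher on day 10, 2 were higher and 2 lower on day 15, and 1 was lower on each of days 20 and 25. Of 10 T cell genes 3 were lower on day 15, and of 7 NK cell genes 1 was lower on day 25. Of 8 platelet genes 2 were higher and 1 lower on day 10, 1 higher and 1 lower on day 15, and 1 lower on day 20. Of 6 liver and hepatoma genes, 4 were higher and 1 lower on day 10, 2 higher on day 15 and 1 higher on day 20. The part of these cell types in the changes of the 10 genes was not tested.

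**Figure D4:**
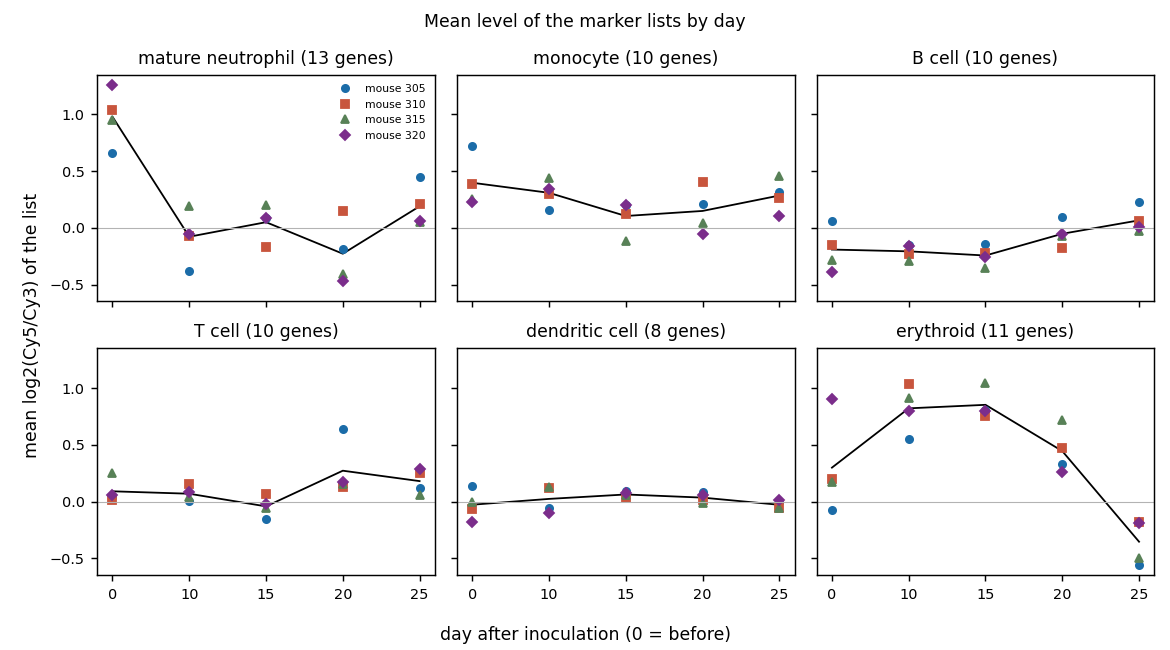
Mean log2(Cy5/Cy3) of 6 marker lists on each array, by day (evenly spaced), with 1 symbol per mouse and the day mean as a line. The neutrophil list lies at or below 0.45 on every later array and at 0.66 to 1.26 on day 0.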

How the data were processed

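Whole blood RNA of 4 mice on 5 days was measured on 20 two-colour Agilent arrays. The deposited scanner files hold spot and local background intensity values, per the file headers, written by Agilent Feature Extraction 9.1.3.1. The deposited log10 ratio was made by that software after its own dye normalization, per the file headers. The series table held the same log10 ratio in 900360 of 900360 values. Groups came from the labels.

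Background was corrected by normexp (offset 50) and arrays were normalized by loess in limma 3.58.1 (R 4.3.3). Control spots were dropped, as were the 10 to 248 spots an array had marked non-uniform; replicate spots were averaged. Probes were kept if well above background in Cy5 on at least 4 of 20 arrays and with values for 3 or more mice on each day. One limma fit held 5 day means. Its threshold was a Benjamini-Hochberg adjusted p of 0.05, two-sided.

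The main background fit was changed after results had been seen. Normexp was first estimated on all spots, and the calls of the 10 genes from that fit were examined. On 28 of 40 array channels its estimated background SD exceeded 10, up to 814; those channels held 2 to 81 spots below -30 after subtraction of their local background, and the other 12 held 0 to 21. Estimated without spots the software marks as outliers, that SD was 0.95 to 3.89. These estimates were given as the reason for the change, but the calls were already known, and whether they played a part cannot be shown. The changed fit also calls more probes: 7, 9, 6, 5 and 3 in the 5 comparisons, against 5, 3, 1, 0 and 1 before. A run that also left out every spot with a background mark lost the kept Tlr6 and Irak4 probes. It changed a second choice, so it was set aside as an alternative.

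The genes, lists and tests were chosen with earlier results of these data known. Genes named outside the 10 were, by rule, at most 12 pathway genes past the F test by largest change against day 0. That test and change were those of each gene's brightest kept probe. The rule also took 6 markers where measured, of which S100a9, Csf1r and Cd79a are given here, and the 4 genes closest to each of 3 members. Unc93b1 is named outside this rule, for its differing probes. The mice pair the days, since each was bled on all of them; deviations from day means correlated at a mean of 0.0647 over 40 same-mouse pairs of arrays and -0.0213 over 120 other pairs. The number of arrays limits precision. On simulated data for day 10 against day 0 (20903 probes) the fit called 71 of 100 probes changed by 0.5 on the log2 scale, 97 of 100 changed by 1, and 9 of 20703 unchanged probes. In the simulation 200 probes were changed, whereas 36.5% of all probes passed in the data. The Benjamini-Hochberg cut-off depends on that share, so these counts are not the sensitivity of the reported tests. Names came from RefSeq tables of GRCm38.p6, used here for names and promoter sequence.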

Additional observations from a re-analysis of the deposited data

Results flagged for a closer look

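In 1 of 70 groups of 4 arrays a value lay far from the others. For the Irak3 probe A_52_P644273 on day 0, mouse 315 was lowest at -1.43, against -0.05 to -0.16 in the other 3 mice, a gap of 0.919 of the group's range. Chance marks about 1 group in 20. The probe was well above background on 1 of 20 arrays and was in no test.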

How the results depend on the processing

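The choice of spots for the background fit was made after the data were seen. With normexp estimated on all spots, 5, 3, 1 and 0 member probes passed on days 10, 15, 20 and 25 against day 0 and 1 for day 25 against day 10, in place of 7, 9, 6, 5 and 3; each of the 10 was also called as reported. Tlr4 on day 25 then changed by 0.0076 (limma adjusted p = 0.949). Over all probes 2343, 1230, 615, 31 and (F test) 5648 passed, in place of 7625, 8096, 4109, 3168 and 11560. Other settings were also added after the data were seen: an offset of 10, and leaving out spots with a background mark, under which 1 probe passed for day 25 against day 10.

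With only probes well above background on all 20 arrays (6 of the 11), 4, 5, 3 and 2 passed on days 10, 15, 20 and 25, and 5 in the F test. On day 25, 2 passed with the software's log ratio, with scaling and with Cy5 alone. For day 25 against day 10, 7 passed with median centring, 5 with scaling and 1 with no filter. Median centring turned Tlr9 to -0.68, -0.55 and -0.85 on days 10, 15 and 20 and, for day 25 against day 10, Tlr9 to 0.46 and Myd88 to 0.71. Median centring raised the all-probe counts to 14018, 13938, 14523 and 5572 against day 0 and 11938 for day 25 against day 10, and put the share of calls higher at 4.1%, 3.7%, 2.2% and 5% on days 10 to 25 (39.8%, 43.5%, 33.8% and 33.5% as reported) and 86.3% (51%) for day 25 against day 10. All-probe counts were 2475 and 806 (12.5% higher) on days 20 and 25 with the software's log ratio, 6659 (52.1% higher) and 5869 (53.4%) with no filter, and 4902, 2213 and 1302 on days 10, 20 and 25 with the strictest filter. With no filter 52.2% of day 10 calls were higher, as were 43.6% on day 25 with no background correction, and with Cy5 alone 51.8% on day 25 and 65.2% for day 25 against day 10. The software's log ratio turned Irak3 A_51_P166941 to -1.09 on day 15. The cause was not tested.

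The mouse as a replicate block, which pairs the days, left the counts at 7, 9, 6, 5, 3 and (F test) 8 and changed no call of a member. Leaving out 1 array gave 7 to 9, 7 to 9, 5 to 7 and 4 to 5 against day 0, 1 to 5 for day 25 against day 10 (1 without the day 25 array of mouse 305 or 310, 5 without that of 320) and 8 to 9 in the F test. Without the day 0 array of mouse 320, 7, 8, 5 and 4 passed against day 0, and without that of mouse 305, 7, 8, 7 and 5. Over all probes, the day 25 count was 1590 without the day 0 array of mouse 320 and 1767 and 2077 without the day 25 arrays of mice 305 and 315; the day 20 count was 2415 and 2727 without the day 20 arrays of mice 315 and 320.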
